A study of Mus musculus with 49 samples.

Results

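The genes described here are 33 subunits of receptors for glutamate and GABA, the main excitatory and inhibitory transmitters of the cortex, out of 45252 genes in the count table. They were listed by symbol with no threshold on their values, although earlier results of these data were known, and all 33 were among the 18220 genes that passed the filter on low counts. They comprised 4 AMPA, 5 kainate, 6 NMDA and 1 delta receptor subunits, 6 metabotropic glutamate receptors, 9 GABA-A subunits and both GABA-B subunits. The counts come from neocortical RNA of 49 rNLS8-line mice bred on mixed C57BL/6J x C3H/HeJ stock, with 1 library per mouse. All mice carried the tetO-hTDP43∆NLS allele, which encodes human TDP-43 lacking its nuclear localization signal. Bigenic mice also carried NEFH-tTA, in which the neurofilament heavy chain promoter drives the transactivator in neurons. Each injection held 40 µg of ovalbumin-peptide conjugate in total, or PBS in its place. Mice given PBS received no ovalbumin, so the peptides and their carrier cannot be told apart. Injections began at 8 weeks of age, with 5 given before doxycycline removal and 1 after it. Doxycycline, which holds the transgene off, was removed when the mice were 25.5 weeks old, and they were killed at 28.5 weeks. The ctrl-PBS group (17 monogenic mice, 10 females and 7 males) and the TDP-PBS group (10 bigenic mice, 4 females and 6 males) received PBS in place of antigen. The TDP-10+12 group (10 bigenic mice, 6 females and 4 males) was immunized with TDP-43 peptides 10 and 12. The TDP-15 group (12 bigenic mice, 5 females and 7 males) received peptide 15, a C-terminal peptide with phosphorylated serines. No group combined the monogenic genotype with an antigen, so antigens were compared only among bigenic mice.

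AMPA, kainate and NMDA receptors are ion channels built from 4 subunits each, and the subunits that are present set their calcium permeability, kinetics and trafficking. Metabotropic glutamate receptors act through G proteins, those of groups II and III mostly by damping transmitter release. GABA-A receptors are chloride channels of 5 subunits, and the GABA-B receptor is a G protein-coupled pair of Gabbr1 and Gabbr2. Altered AMPA receptor composition and reduced inhibition of cortical neurons have long been discussed in amyotrophic lateral sclerosis.

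Total counts lay between 17775738 and 21033608 per mouse. The lowest count of any member gene in any mouse was 121, against a floor of 3 counts (0.139 to 0.165 CPM, counting error only). Levels are CPM, counts relative to library size as edgeR's cpm function gives them on the TMM scale, and CPM per kilobase of annotated exon where genes are compared with each other. Of the defining markers of excitatory neurons (Slc17a7, Neurod6 and Tbr1 among them) and interneurons, none was at 0 in any group. In 10 of the 49 mice (5 ctrl-PBS, 0 TDP-PBS, 2 TDP-10+12 and 3 TDP-15), the summed olfactory bulb markers Eomes, Scgn and Omp reached at least 2 CPM, up to 37.9 CPM, so their tissue differed from the rest in its dissection markers. Values without these mice are given where they change a call.

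Against ctrl-PBS, receptor genes that changed were nearly all lower. In TDP-PBS, 16 of 33 members were lower and 1 was higher (edgeR's quasi-likelihood test, adjusted p under 0.05 over 18220 genes), where 21.6% of all genes tested were lower and 21.9% higher. In TDP-10+12, 16 members were lower and 1 higher, against a background of 20% lower and 20.8% higher. In TDP-15, 17 were lower and 1 higher, against 23.2% and 23.6%. The median log2 fold change of the 33 members was −0.15 in TDP-PBS, −0.11 in TDP-10+12 and −0.16 in TDP-15, where the median over all genes tested was 0.00 in each comparison. The 3 comparisons share the same ctrl-PBS mice. In bulk tissue, fewer cells of a type and less RNA per cell cannot be told apart.

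A set of 14 members was lower in all 3 bigenic groups, where the share over all genes tested was 16.1%: Gria2, Gria3, Gria4, Grin2a, Grin2c, Grm3, Grm4, Grm7, Grm8, Gabra3, Gabra4, Gabra5, Gabrb1 and Gabbr1. Grik5 was higher in all 3. Gria1, Grik1, Grin3a, Gabrb2 and Gabrg3 were called in 1 or 2 groups. The remaining 13 (Grid1, Grik2, Grik3, Grik4, Grin1, Grin2b, Grin2d, Grm2, Grm5, Gabra2, Gabrd, Gabrg1 and Gabbr2) were called in none. In 11 of the 14 lower genes (Gria2, Gria3, Gria4, Grin2a, Grm3, Grm4, Grm7, Grm8, Gabra3, Gabra5 and Gabrb1), the call held in all 3 groups under each of 10 other settings of the analysis. Without the mice with olfactory bulb markers, the number called was 17 in TDP-PBS, 13 in TDP-10+12 and 16 in TDP-15, where 41%, 35.7% and 42.2% of the 18211 genes tested were called in either direction. With all mice these shares were 43.5%, 40.8% and 46.9%.

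**Figure D1:**
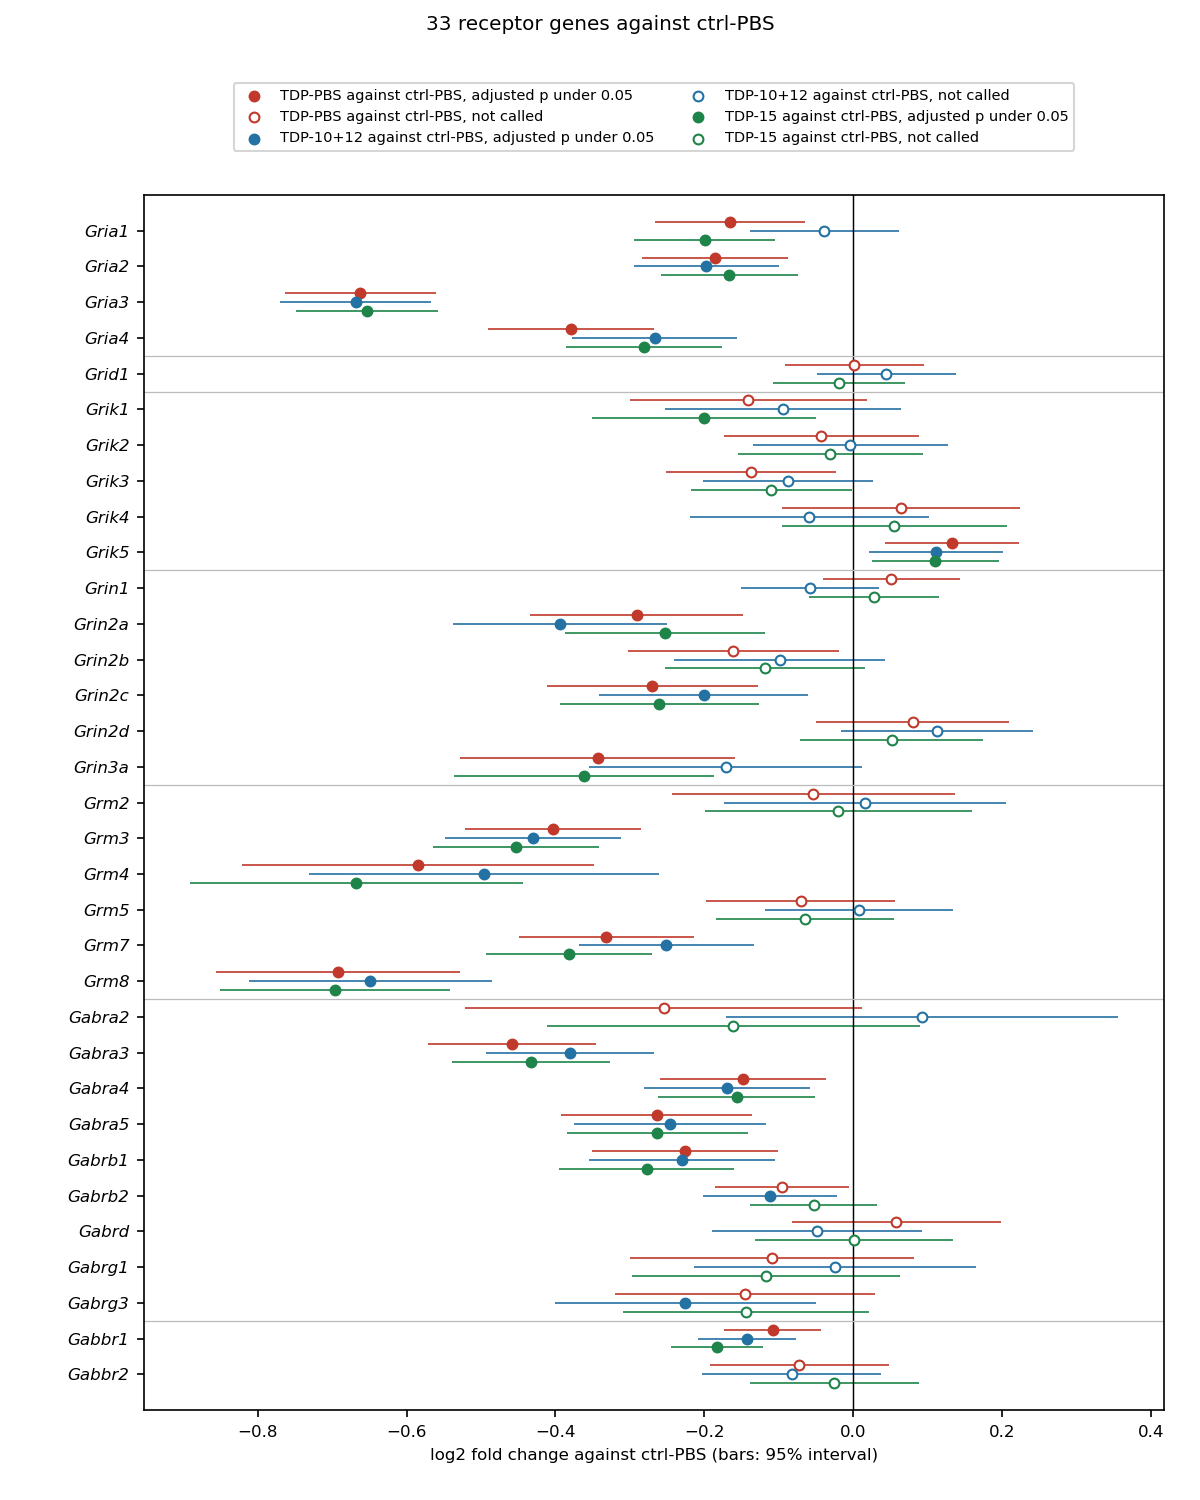
Log2 fold change of the 33 receptor genes against ctrl-PBS in TDP-PBS, TDP-10+12 and TDP-15, grouped by receptor class from AMPA subunits at the top to GABA-B subunits at the bottom. Points are estimates, bars are 95% intervals and filled points passed an adjusted p of 0.05. Grm8, Gria3 and Grm4 lie farthest to the left, and Grik5 is the only gene with filled points above 0.

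Promoter sequences are shown for the 4 members with the largest decreases in TDP-PBS among those listed in the RefSeq promoter table (GRCm38.p6), and for Grik5, the member that rose. Each runs 5′ to 3′ from 250 bases before to 50 bases after an annotated start. Capitals mark matches on either strand to the GC box (GGGCGG), the CCAAT box (CCAAT) or the TATA box (TATAAA). Of Grm8 and Gabra3, which have several listed starts, the outermost is shown. The listed start of Grik5 lies inside the gene, whose annotated 5′ end is at 25075694, while the other 4 starts lie at the 5′ end.
Grm8, chr6:28135097-28135396, minus strand: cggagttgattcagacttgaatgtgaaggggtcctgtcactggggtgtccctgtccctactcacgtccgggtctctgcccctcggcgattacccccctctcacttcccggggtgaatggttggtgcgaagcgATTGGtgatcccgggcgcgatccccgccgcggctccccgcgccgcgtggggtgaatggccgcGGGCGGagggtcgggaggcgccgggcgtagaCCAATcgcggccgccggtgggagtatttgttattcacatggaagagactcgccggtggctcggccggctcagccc
Gabra3, chrX:72656870-72657169, minus strand: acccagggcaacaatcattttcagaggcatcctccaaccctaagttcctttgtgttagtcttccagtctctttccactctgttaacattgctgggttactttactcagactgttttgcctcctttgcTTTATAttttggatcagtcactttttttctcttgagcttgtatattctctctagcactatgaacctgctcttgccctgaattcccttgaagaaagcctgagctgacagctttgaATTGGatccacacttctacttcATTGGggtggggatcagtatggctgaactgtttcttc
Grm3, chr5:9725303-9725602, minus strand: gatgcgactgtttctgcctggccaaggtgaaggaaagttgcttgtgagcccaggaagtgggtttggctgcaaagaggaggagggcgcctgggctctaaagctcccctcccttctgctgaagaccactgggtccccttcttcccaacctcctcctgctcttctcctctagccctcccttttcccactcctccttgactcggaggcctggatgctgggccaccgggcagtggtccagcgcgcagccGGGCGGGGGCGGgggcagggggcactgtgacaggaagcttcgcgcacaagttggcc
Gria4, chr9:4796185-4796484, minus strand: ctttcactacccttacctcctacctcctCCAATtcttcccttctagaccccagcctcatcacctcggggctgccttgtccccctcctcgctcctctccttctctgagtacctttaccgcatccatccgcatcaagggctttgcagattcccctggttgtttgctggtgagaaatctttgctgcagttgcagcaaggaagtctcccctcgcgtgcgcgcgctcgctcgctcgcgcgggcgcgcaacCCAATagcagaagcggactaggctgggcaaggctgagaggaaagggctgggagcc
Grik5, chr7:25072320-25072619, minus strand: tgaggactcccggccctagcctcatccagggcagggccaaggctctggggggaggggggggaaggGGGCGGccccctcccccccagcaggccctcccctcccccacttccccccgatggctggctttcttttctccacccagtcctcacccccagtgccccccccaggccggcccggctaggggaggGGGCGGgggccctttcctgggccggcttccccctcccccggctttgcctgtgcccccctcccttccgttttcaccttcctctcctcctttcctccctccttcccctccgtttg
The 5 sequences differ in base composition, from 43% G and C in Gabra3 to 72% in Grik5, whose window lies inside the gene. Over the 30 listed promoters of 23 members the median was 61%, against 52.7% over 32851 listed promoters. The GC box was found in 16 of the 30, compared with 35.7% of all promoters, the CCAAT box in 11 (37.4% of all) and the TATA box in 3 (13.6% of all). The windows of Gabra3 overlap, as do those of Grm7, so a match there can count in both. By gene, the 3 motifs were in 15, 9 and 2 of the 23 members. The cAMP response element (TGACGTCA) was in none of the 30 and in 1.79% of all, and the NRF1 motif in 1 (0.971% of all). Among the printed promoters, that of Grik5 and that of Grm3 hold GC boxes only, and the promoter of Gabra3 is the one with a TATA box. These matches are descriptions of the letters in the window and were set against no measured binding.

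AMPA receptor subunits carry most fast excitation. Gria3 (GluA3, chromosome X, 41400819 to 41678601) had the clearest difference of any member. In the ctrl-PBS mice, Gria3 had a lowest, median and highest level of 171, 194 and 220.4 CPM, and in TDP-PBS these were 112, 123 and 136 CPM. TDP-10+12 mice had 89.1, 122 and 149 CPM of Gria3 in the same order, and TDP-15 mice 110.4, 125 and 133 CPM. Every one of the 32 bigenic mice lay below every ctrl-PBS mouse, which held for 1 of 33 members and for 1.64% of all genes tested. The 10 TDP-PBS mice alone lay below every ctrl-PBS mouse for Gria3 and no other member, where 2.58% of all genes did so. The log2 fold change of Gria3 was −0.66 in TDP-PBS (adjusted p = 2.36e-15, standard error 0.05), −0.67 in TDP-10+12 (2.43e-15) and −0.65 in TDP-15 (3.14e-16), and in TDP-PBS it fell by 36.8%.

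Gria4 (GluA4, chromosome 9, 4417893 to 4796234) is prominent in parvalbumin interneurons. Gria4 lay at 83.5, 94.2 and 109 CPM (lowest, median and highest) in ctrl-PBS and at 64.6, 70.4 and 85.7 CPM in TDP-PBS. In TDP-10+12 the corresponding levels were 65.0, 77.3 and 94.6 CPM, and in TDP-15 they were 61.5, 77.6 and 90.2 CPM. Its groups overlapped, with 25 of 32 bigenic mice below every ctrl-PBS mouse and 31 of 32 below the ctrl-PBS median. Gria4 had a log2 fold change of −0.38 in TDP-PBS (adjusted p = 2.42e-07, standard error 0.06), −0.27 in TDP-10+12 (0.000126) and −0.28 in TDP-15 (1.86e-05). Gria2, whose edited form makes AMPA receptors impermeable to calcium, changed by −0.19, −0.20 and −0.17 in TDP-PBS, TDP-10+12 and TDP-15, and each passed. Gria1, the AMPA subunit with the highest level per length in ctrl-PBS (55.8 ± 5.66 CPM per kilobase, SD, n = 17), had log2 fold changes of −0.17, −0.04 and −0.20. It passed in TDP-PBS and TDP-15 and did not in TDP-10+12 (adjusted p = 0.581). Summed over the 4 genes, AMPA subunit levels were 1000.4 ± 62.3 CPM (SD, n = 17) in ctrl-PBS, 825 ± 46.8 CPM (n = 10) in TDP-PBS, 855 ± 70.6 CPM (n = 10) in TDP-10+12 and 829 ± 56.0 CPM (n = 12) in TDP-15. The share of Gria3 in the AMPA total, counted per kilobase, was 17.3% ± 1.13 in ctrl-PBS and 13.2% ± 0.79 in TDP-PBS, while that of Gria1 was 48.6% ± 2.26 and 52.4% ± 2.19.

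Of the 5 kainate receptor subunits, none was called lower in TDP-PBS or TDP-10+12, 1 was lower in TDP-15, and 1 was higher in every group. Over all genes tested, 21.6%, 20% and 23.2% were lower in these groups and 21.9%, 20.8% and 23.6% higher. Grik5 (GluK5, chromosome 7, 25009849 to 25075694), a high-affinity subunit that forms channels together with Grik1, Grik2 or Grik3, was the member that rose. Grik5 lay at 305, 358 and 401 CPM (lowest, median and highest) in ctrl-PBS and at 319, 394 and 462 CPM in TDP-PBS. For the immunized mice the values were 357, 387 and 428 CPM in TDP-10+12 and 345, 387 and 426 CPM in TDP-15. The groups overlapped widely, with 13 of 32 bigenic mice above every ctrl-PBS mouse and 7 of 32 below the ctrl-PBS median. Its log2 fold change was 0.13 in TDP-PBS (adjusted p = 0.0156, standard error 0.05), 0.11 in TDP-10+12 (0.0476) and 0.11 in TDP-15 (0.0335). The call in TDP-10+12 was lost in 3 of 10 other settings and that in TDP-15 also in 3 of 10, not all of them different settings, with adjusted p-values up to 0.0945. Per kilobase Grik5 was the most abundant kainate subunit in ctrl-PBS (69.4 ± 4.63 CPM per kilobase), far above Grik3 (14.3 ± 1.17) and the lowest of the class, Grik1 (1.55 ± 0.225). Grik1 was lower in TDP-15 (log2 fold change −0.20, adjusted p = 0.028), and its values of −0.14 in TDP-PBS and −0.09 in TDP-10+12 did not pass. In TDP-15, Grik1 did not pass without the mice with olfactory bulb markers (−0.23) or without a filter on low counts. Grik2, Grik3 and Grik4 were called in no group, with log2 fold changes between −0.14 and 0.06. The delta receptor gene Grid1 (GluD1, a synapse organizer) was also called in none, at 0.00, 0.04 and −0.02.

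Among NMDA subunits, the obligatory subunit Grin1 was not called in any group (0.05, −0.06 and 0.03), while 3 of the 6 were lower in TDP-PBS, 2 in TDP-10+12 and 3 in TDP-15. The shares of all genes tested that were lower in these groups were 21.6%, 20% and 23.2%. About 13.5% of the exonic bases of Grin1 overlap the antisense gene Grin1os, and the strand setting of the counts is not given, so its level is uncertain. Grin2a (GluN2A, chromosome 16, 9567901 to 9996083), the GluN2 subunit that rises as cortical synapses mature, was lower in all 3 groups. Grin2a lay at 121, 142 and 171 CPM (lowest, median and highest) in ctrl-PBS and at 84.8, 110.3 and 150.4 CPM in TDP-PBS. The same 3 values of Grin2a were 85.8, 108 and 126 CPM in TDP-10+12 and 102, 116 and 146 CPM in TDP-15. The TDP-PBS mice spread most and overlapped ctrl-PBS, and 23 of 32 bigenic mice lay below every ctrl-PBS mouse. Grin2a had a log2 fold change of −0.29 in TDP-PBS (adjusted p = 0.000917, standard error 0.07), −0.39 in TDP-10+12 (1.56e-05) and −0.25 in TDP-15 (0.00193). Grin2b, the other main cortical GluN2 subunit, had log2 fold changes of −0.16, −0.10 and −0.12 and did not pass.

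Grin3a (GluN3A, chromosome 4, 49661611 to 49846023) lowers the calcium permeability of the receptors it joins. Grin3a lay at 28.5, 41.7 and 53.4 CPM (lowest, median and highest) in ctrl-PBS and at 26.8, 30.1 and 43.5 CPM in TDP-PBS. TDP-10+12 mice had 24.0, 35.3 and 43.3 CPM of Grin3a in the same order, and TDP-15 mice 23.1, 30.1 and 38.4 CPM. The ranges overlapped in all groups, and 5 of 32 bigenic mice lay below every ctrl-PBS mouse. Its log2 fold change was −0.34 in TDP-PBS (adjusted p = 0.00238, standard error 0.09), −0.17 in TDP-10+12 (0.141) and −0.36 in TDP-15 (0.000653), so TDP-10+12 did not pass. The test of TDP-10+12 against TDP-PBS gave 0.17 for Grin3a (unadjusted p = 0.107) and did not pass either. Grin2c changed by −0.27, −0.20 and −0.26, and its call in TDP-10+12 was lost without the mice with olfactory bulb markers (−0.17). Grin2d, at 0.08, 0.11 and 0.05, was not called. Its exons overlap an opposite-strand gene over 9.66% of their bases.

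Metabotropic glutamate receptors held the largest decreases besides Gria3. All 3 members of group III in the list, Grm4, Grm7 and Grm8, were lower in each bigenic group, as were 16.1% of all genes tested. Grm8 (mGlu8, chromosome 6, 27275121 to 28135146) had the lowest level per length of all 33 members in ctrl-PBS (1.37 ± 0.183 CPM per kilobase). Grm8 lay at 10.3, 13.1 and 16.6 CPM (lowest, median and highest) in ctrl-PBS and at 6.19, 8.11 and 10.7 CPM in TDP-PBS. In TDP-10+12 the corresponding levels were 7.62, 8.26 and 11.6 CPM, and in TDP-15 they were 6.02, 8.55 and 10.3 CPM. The ranges touched only at their edges, with 28 of 32 bigenic mice below every ctrl-PBS mouse and all 32 below the ctrl-PBS median. The log2 fold change of Grm8 was −0.69 in TDP-PBS (adjusted p = 1.34e-09, standard error 0.08), −0.65 in TDP-10+12 (7.16e-09) and −0.70 in TDP-15 (1.68e-10), and in TDP-PBS it fell by 38.1%.

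Grm4 (mGlu4, chromosome 17, 27422387 to 27513826) varied more between mice. Grm4 lay at 70.5, 95.0 and 149.9 CPM (lowest, median and highest) in ctrl-PBS and at 46.6, 66.4 and 113 CPM in TDP-PBS. For the immunized mice the values were 58.0, 67.7 and 87.7 CPM in TDP-10+12 and 47.2, 58.0 and 104 CPM in TDP-15. One TDP-PBS mouse at 113 CPM and a TDP-15 mouse at 104 CPM lay above the ctrl-PBS median, and 30 of 32 bigenic mice lay below it. Relative to ctrl-PBS, Grm4 had a log2 fold change of −0.58 in TDP-PBS (adjusted p = 7.44e-05, standard error 0.12), −0.50 in TDP-10+12 (0.000676) and −0.67 in TDP-15 (2.59e-06). Summed levels of 5 striatal neuron markers ranged from 187 to 1163 CPM over the 49 mice. With this level as a covariate, Grm4 had log2 fold changes of −0.60, −0.45 and −0.56 and was called in all 3 groups, while Grik5 in TDP-10+12 (0.11) and TDP-15 (0.10) and Gabra4 in TDP-15 (−0.11) were no longer called. Grm7 (mGlu7) changed by −0.33, −0.25 and −0.38, and all 32 bigenic mice lay below its ctrl-PBS median.

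The group II receptors Grm2 and Grm3 differed from each other. Grm3 (mGlu3), which is expressed by astrocytes as well as neurons, had 53.4 ± 5.41 CPM (SD, n = 17) in ctrl-PBS, 40.4 ± 4.78 CPM (n = 10) in TDP-PBS, 39.6 ± 3.54 CPM (n = 10) in TDP-10+12 and 39.0 ± 4.32 CPM (n = 12) in TDP-15. All 32 bigenic mice lay below the ctrl-PBS median and 24 below every ctrl-PBS mouse. For Grm3 the log2 fold change was −0.40 in TDP-PBS (adjusted p = 2.1e-07, standard error 0.06), −0.43 in TDP-10+12 (5.74e-08) and −0.45 in TDP-15 (2.73e-09). Grm2, with 9.60% of its exonic bases under an opposite-strand gene, was not called (−0.05, 0.02 and −0.02). Its spread between mice was 10.2% of the mean in ctrl-PBS and 25.1% in TDP-PBS. Grm5, the group I member, was not called in any group (−0.07, 0.01 and −0.06). Of 4 astrocyte markers (Aqp4, Gja1, Aldh1l1 and Slc1a3), 1 was lower in TDP-PBS, Gja1 (log2 fold change −0.29), against 21.6% of all genes tested. Gfap, whose protein the paper used to count astrocytes, is not among them. The summed astrocyte markers had medians of 532 CPM in ctrl-PBS, 486 in TDP-PBS, 511 in TDP-10+12 and 471 in TDP-15. Their part in the values of Grm3 was not tested.

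**Figure D2:**
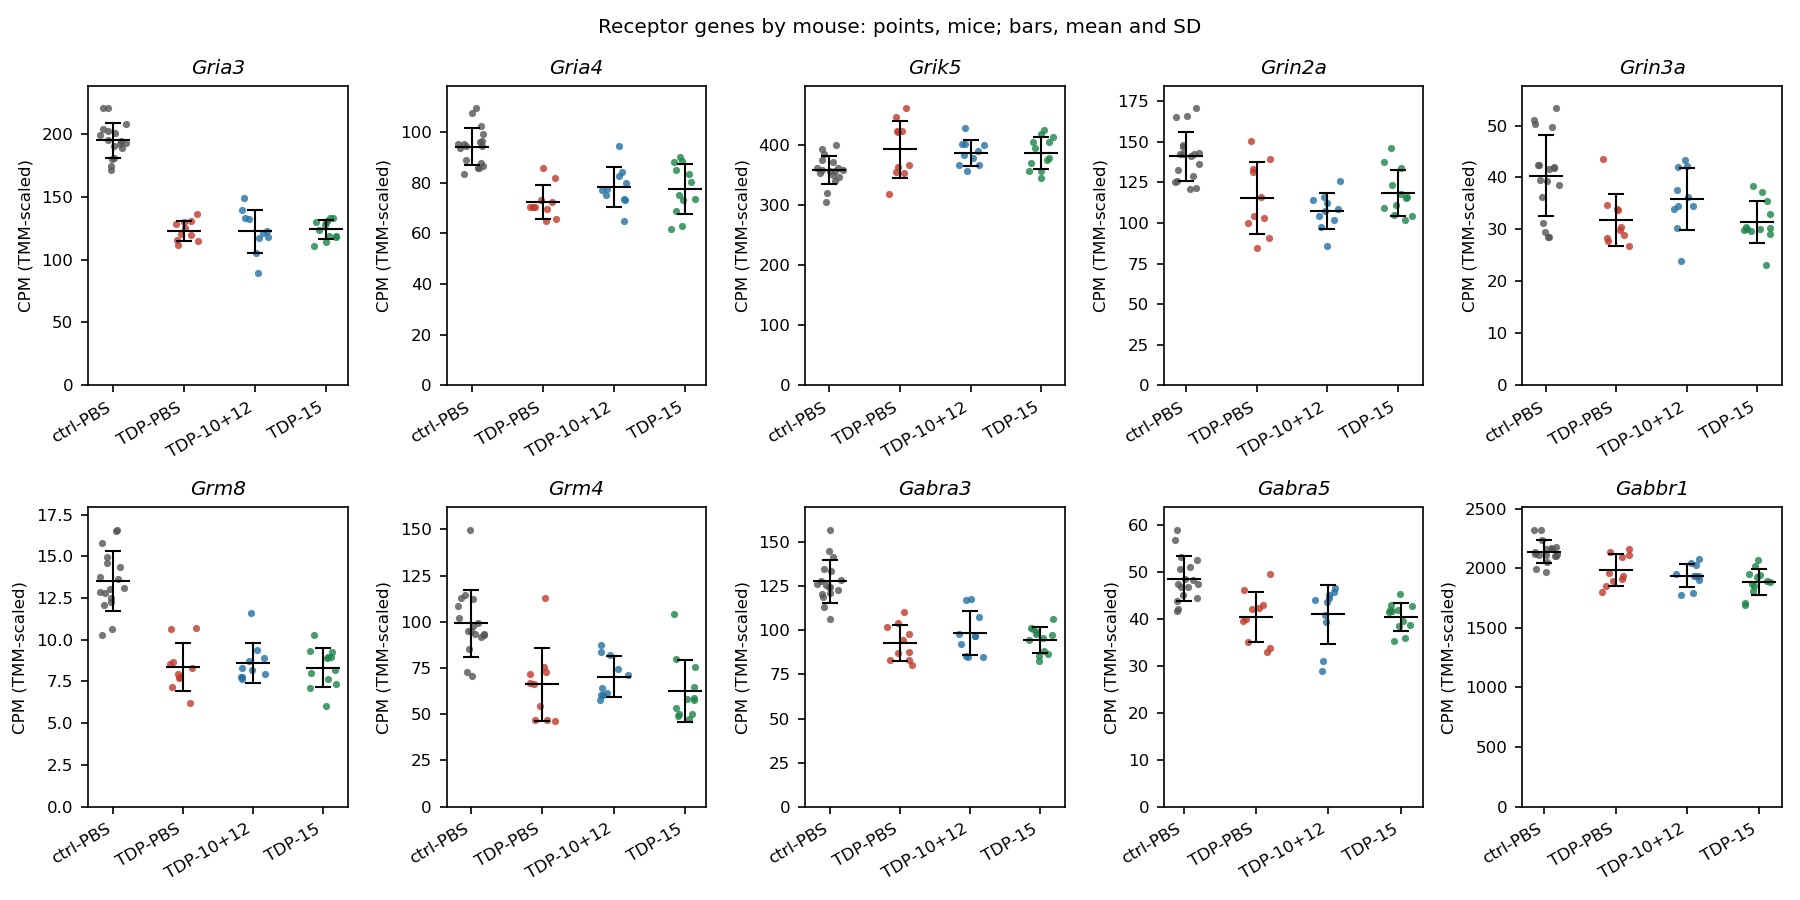
CPM of 10 receptor genes in each of the 49 mice by group, on axes that start at 0. Points are mice and bars are the mean and SD. For Gria3 the bigenic mice (89.1 to 149 CPM) lie apart from ctrl-PBS (171 to 220.4 CPM), and for the other 9 genes the ranges overlap.

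Of the 9 GABA-A subunits, none was higher in any bigenic group, against 21.9%, 20.8% and 23.6% of all genes tested. In TDP-PBS 4 were lower, in TDP-10+12 6 and in TDP-15 4, against 21.6%, 20% and 23.2% of all genes tested. Gabra3 (the alpha 3 subunit, chromosome X, 72432676 to 72656919) had the largest decrease among the 9. Gabra3 lay at 106, 126 and 157 CPM (lowest, median and highest) in ctrl-PBS and at 80.5, 91.1 and 111 CPM in TDP-PBS. The same 3 values of Gabra3 were 84.9, 96.9 and 118 CPM in TDP-10+12 and 82.5, 96.6 and 107 CPM in TDP-15. Its ranges overlapped at the edge, with 27 of 32 bigenic mice below every ctrl-PBS mouse and all 32 below the ctrl-PBS median. The log2 fold change of Gabra3 was −0.46 in TDP-PBS (adjusted p = 3.98e-09, standard error 0.06), −0.38 in TDP-10+12 (3.33e-07) and −0.43 in TDP-15 (2.84e-09).

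Gabra5 (alpha 5, chromosome 7, 57407669 to 57591016) forms mostly extrasynaptic receptors that carry tonic inhibition. Gabra5 lay at 41.7, 47.4 and 58.9 CPM (lowest, median and highest) in ctrl-PBS and at 32.9, 41.0 and 49.4 CPM in TDP-PBS. TDP-10+12 mice had 28.8, 43.8 and 46.5 CPM of Gabra5 in the same order, and TDP-15 mice 35.2, 41.5 and 45.2 CPM. The overlap was wider than for Gabra3, and 15 of 32 bigenic mice lay below every ctrl-PBS mouse. For Gabra5 the log2 fold change was −0.26 in TDP-PBS (adjusted p = 0.000842, standard error 0.07), −0.25 in TDP-10+12 (0.00193) and −0.26 in TDP-15 (0.000389). Gabrg3, its neighbour on chromosome 7, passed in TDP-10+12 and not in the other groups (−0.15, −0.23 and −0.14 in TDP-PBS, TDP-10+12 and TDP-15), and did not pass in TDP-10+12 without the mice with olfactory bulb markers (−0.14).

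On chromosome 5 of GRCm38.p6, 4 members lie side by side between 70751047 and 72149572: Gabrg1, Gabra2, Gabra4 and Gabrb1. Gabrb1 (beta 1) changed by −0.23, −0.23 and −0.28 and Gabra4 (alpha 4) by −0.15, −0.17 and −0.16, and both passed in all groups. Gabra4 lost its call without the mice with olfactory bulb markers in each group (−0.14 in TDP-PBS, −0.13 in TDP-10+12 and −0.14 in TDP-15). Gabra2 (alpha 2), at −0.25, 0.09 and −0.16, and Gabrg1 (gamma 1), at −0.11, −0.02 and −0.12, were not called. Gabra2 had the largest spread of any member in ctrl-PBS, from 47.8 to 140 CPM with a coefficient of variation of 24.8%, so its 95% interval in TDP-PBS ran from −0.52 to 0.01. Gabrb2 (beta 2), the GABA-A subunit with the highest level per length in the list (36.6 ± 2.27 CPM per kilobase), was called lower in TDP-10+12 (−0.11, adjusted p = 0.0454) and not in the other groups (−0.10 and −0.05). That call was lost in 5 of 10 other settings. Without the mice with olfactory bulb markers, Gabrb2 was at −0.13 in TDP-10+12, which did not pass (adjusted p = 0.0578), and at −0.13 in TDP-PBS, which passed (adjusted p = 0.0413). Gabrd (delta), which forms extrasynaptic receptors with Gabra4, was not called (0.06, −0.05 and 0.00).

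Of the GABA-B pair, Gabbr1 (chromosome 17, 37045966 to 37074305) binds GABA and Gabbr2 couples to the G protein. Gabbr1 had the highest level of all members, 276 ± 12.1 CPM per kilobase in ctrl-PBS, and the smallest spread, 4.39% of the mean. Gabbr1 lay at 1972, 2122 and 2324 CPM (lowest, median and highest) in ctrl-PBS and at 1797, 1949 and 2162 CPM in TDP-PBS. In TDP-10+12 the corresponding levels were 1778, 1939 and 2079.9 CPM, and in TDP-15 they were 1694, 1889.5 and 2069.7 CPM. The groups overlapped, with 23 of 32 bigenic mice below every ctrl-PBS mouse. Its log2 fold change was −0.11 in TDP-PBS (adjusted p = 0.00663, standard error 0.03), −0.14 in TDP-10+12 (0.00044) and −0.18 in TDP-15 (3.39e-06), a decrease of at most 11.9% in these comparisons. In TDP-PBS, Gabbr1 did not pass without a filter on low counts (−0.11). Gabbr2 was not called (−0.07, −0.08 and −0.03).

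Most of the listed markers of cortical interneurons, a main source of GABA, were lower in the same mice. Of 6 such markers (Gad1, Gad2, Pvalb, Sst, Vip and Lamp5), 5 were lower in each bigenic group, against 16.1% of all genes tested, and Gad2 was not called. Their summed level ranged from 856 to 1046 CPM in ctrl-PBS, from 648 to 919.9 CPM in TDP-PBS, from 646 to 1026 CPM in TDP-10+12 and from 616 to 809 CPM in TDP-15. Lamp5 had the largest change of them, with a log2 fold change of −1.51 in TDP-PBS, and it is part of the summed level. Which cells gave the Lamp5 counts was not tested. Summed excitatory neuron markers overlapped, with medians of 2165 CPM in ctrl-PBS, 2236 in TDP-PBS, 2030 in TDP-10+12 and 2079 in TDP-15. Of 4 microglia markers 3 were higher in each bigenic group, where 21.9%, 20.8% and 23.6% of all genes tested were higher. Whether these cell type markers had a part in the receptor values was not tested.

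Ratios between subunits of one receptor type were compared within each mouse, as log2 of one CPM over the other, in 24 tests (4 ratios, 6 comparisons, two-sided permutation tests with 100000 resamples, adjusted over the 24). Of these, 10 passed. The comparisons with ctrl-PBS share its mice. The ratios are formed from the same values as the single-gene tests above, so they are not separate evidence. Gria2 relative to the sum of Gria1, Gria3 and Gria4 had a median ratio of 0.590 in ctrl-PBS (0.520 to 0.708), 0.652 in TDP-PBS (0.581 to 0.785), 0.633 in TDP-10+12 (0.525 to 0.679) and 0.670 in TDP-15 (0.610 to 0.749). It was higher than in ctrl-PBS by 0.15 on the log2 scale in TDP-PBS (standard error 0.05, permutation test, adjusted p = 0.0241) and by 0.17 in TDP-15 (standard error 0.04, adjusted p = 0.00192). In TDP-10+12 the difference of 0.05 did not pass (adjusted p = 0.41), and TDP-10+12 was lower than TDP-15 by 0.13 (permutation test, adjusted p = 0.0299). Without the mice with olfactory bulb markers the TDP-PBS difference was 0.13 and did not pass (adjusted p = 0.0639). Gria2 itself was lower than in ctrl-PBS in each bigenic group, and Gria3, in the denominator, fell more.

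Grin2a relative to Grin2b had a median ratio of 0.570 in ctrl-PBS, 0.511 in TDP-PBS, 0.453 in TDP-10+12 and 0.506 in TDP-15, so every group held fewer Grin2a than Grin2b counts at its median. TDP-10+12 was lower than ctrl-PBS by 0.30 (log2, standard error 0.06, permutation test, adjusted p = 0.00208). It was also lower than TDP-PBS by 0.16 (standard error 0.06, adjusted p = 0.0299) and than TDP-15 by 0.16 (standard error 0.05, adjusted p = 0.0241). The differences of −0.14 in TDP-PBS and −0.14 in TDP-15 from ctrl-PBS did not pass (adjusted p = 0.126 and 0.0936). Ranges overlapped between all groups, and neither Grin2a nor Grin2b alone was called between bigenic groups. Without the mice with olfactory bulb markers, the difference of TDP-10+12 from TDP-PBS was −0.15 and did not pass (adjusted p = 0.0639), and that from TDP-15 was −0.18 and passed (adjusted p = 0.0466).

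Grm2 relative to Grm3 had a median ratio of 1.44 in ctrl-PBS, 1.86 in TDP-PBS, 1.97 in TDP-10+12 and 1.96 in TDP-15. It was higher than in ctrl-PBS by 0.31 in TDP-PBS (log2, standard error 0.13, permutation test, adjusted p = 0.0308), by 0.43 in TDP-10+12 (0.00516) and by 0.43 in TDP-15 (0.00192). Without the mice with olfactory bulb markers the first 2 differences were 0.27 (adjusted p = 0.095) and 0.34 (adjusted p = 0.0639) and no longer passed, while TDP-15 did. Gabbr1 relative to Gabbr2 had median ratios of 3.88 in ctrl-PBS, 3.77 in TDP-PBS, 3.80 in TDP-10+12 and 3.50 in TDP-15. It was lower than ctrl-PBS in TDP-15 (−0.16, standard error 0.05, permutation test, adjusted p = 0.0104), and the values of −0.03 in TDP-PBS and −0.06 in TDP-10+12 did not pass.

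**Figure D3:**
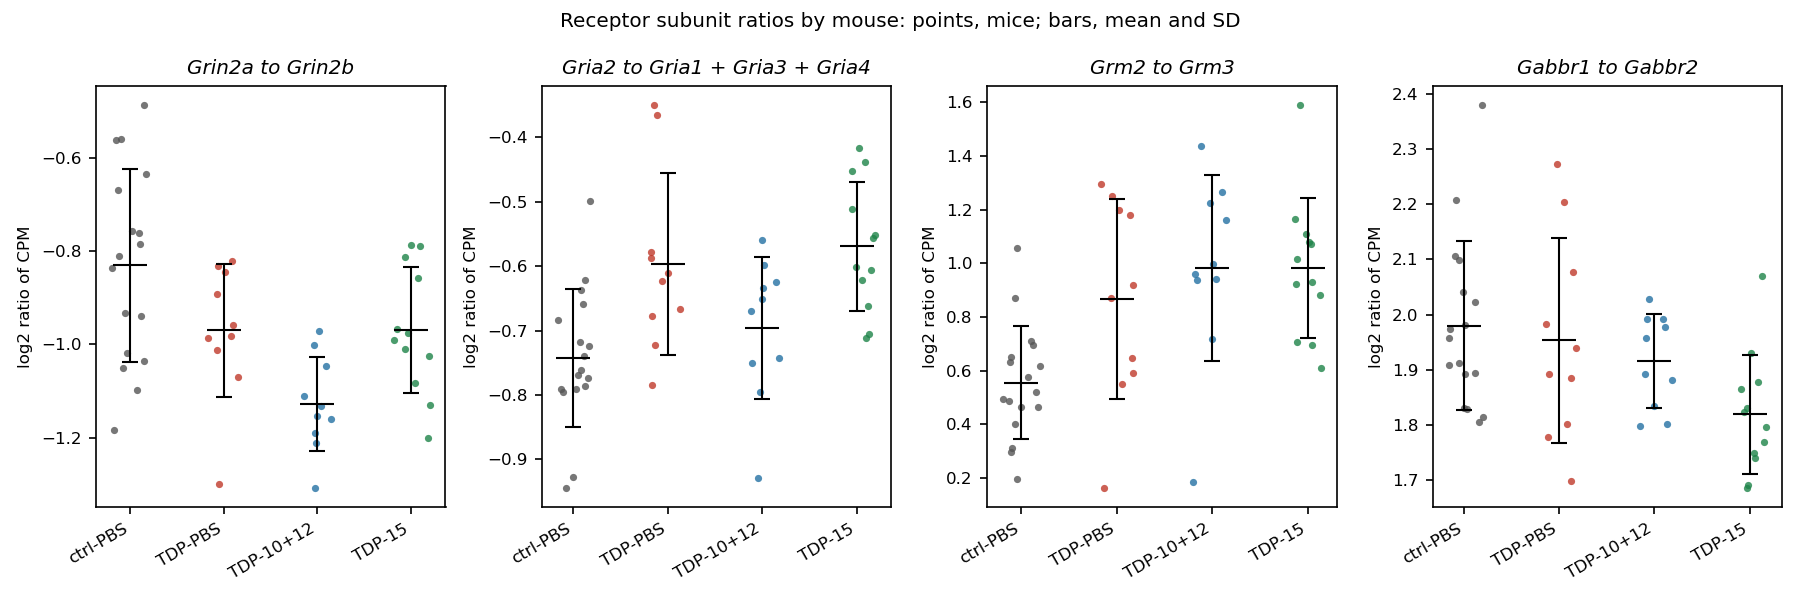
Log2 ratio of CPM between receptor subunits in each of the 49 mice, for 4 ratios by group (axes do not start at 0). Points are mice and bars are the mean and SD. The Grin2a to Grin2b ratio is lowest on average in TDP-10+12, the Grm2 to Grm3 ratio is higher on average in the 3 bigenic groups than in ctrl-PBS, and ranges overlap throughout.

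Whether immunization changed receptor transcripts was tested among the bigenic groups. No member was called in TDP-10+12 against TDP-PBS, TDP-15 against TDP-PBS or TDP-10+12 against TDP-15 (edgeR's quasi-likelihood test), where 0% of all genes tested were called in each. DESeq2 and limma-voom called 0 members too. At an unadjusted p under 0.05 there were 3 of 33 members in the first comparison, 1 in the second and 2 in the third. Of all 18220 genes tested, 953, 552 and 1244 were under 0.05 in these comparisons. The smallest p of the members belonged to Gria1 in TDP-10+12 against TDP-15, with a log2 fold change of 0.16 (95% interval 0.05 to 0.27, unadjusted p = 0.00492, adjusted p = 0.537). For Gria3 the interval ran from −0.12 to 0.11 in TDP-10+12 against TDP-PBS and from −0.10 to 0.12 in TDP-15 against TDP-PBS. For Grm8 these intervals were −0.14 to 0.23 and −0.18 to 0.17, and for Gabra3 −0.05 to 0.20 and −0.09 to 0.15. Gabra2 had the widest interval in TDP-10+12 against TDP-PBS, 0.05 to 0.64 around 0.35 (unadjusted p = 0.0263, adjusted p = 0.926). Among the subunit ratios given above, Grin2a to Grin2b was lower in TDP-10+12 than in TDP-PBS and in TDP-15. The Gria2 ratio was lower in TDP-10+12 than in TDP-15. Of these ratio differences, only that of Grin2a to Grin2b from TDP-15 passed in every other setting.

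**Figure D4:**
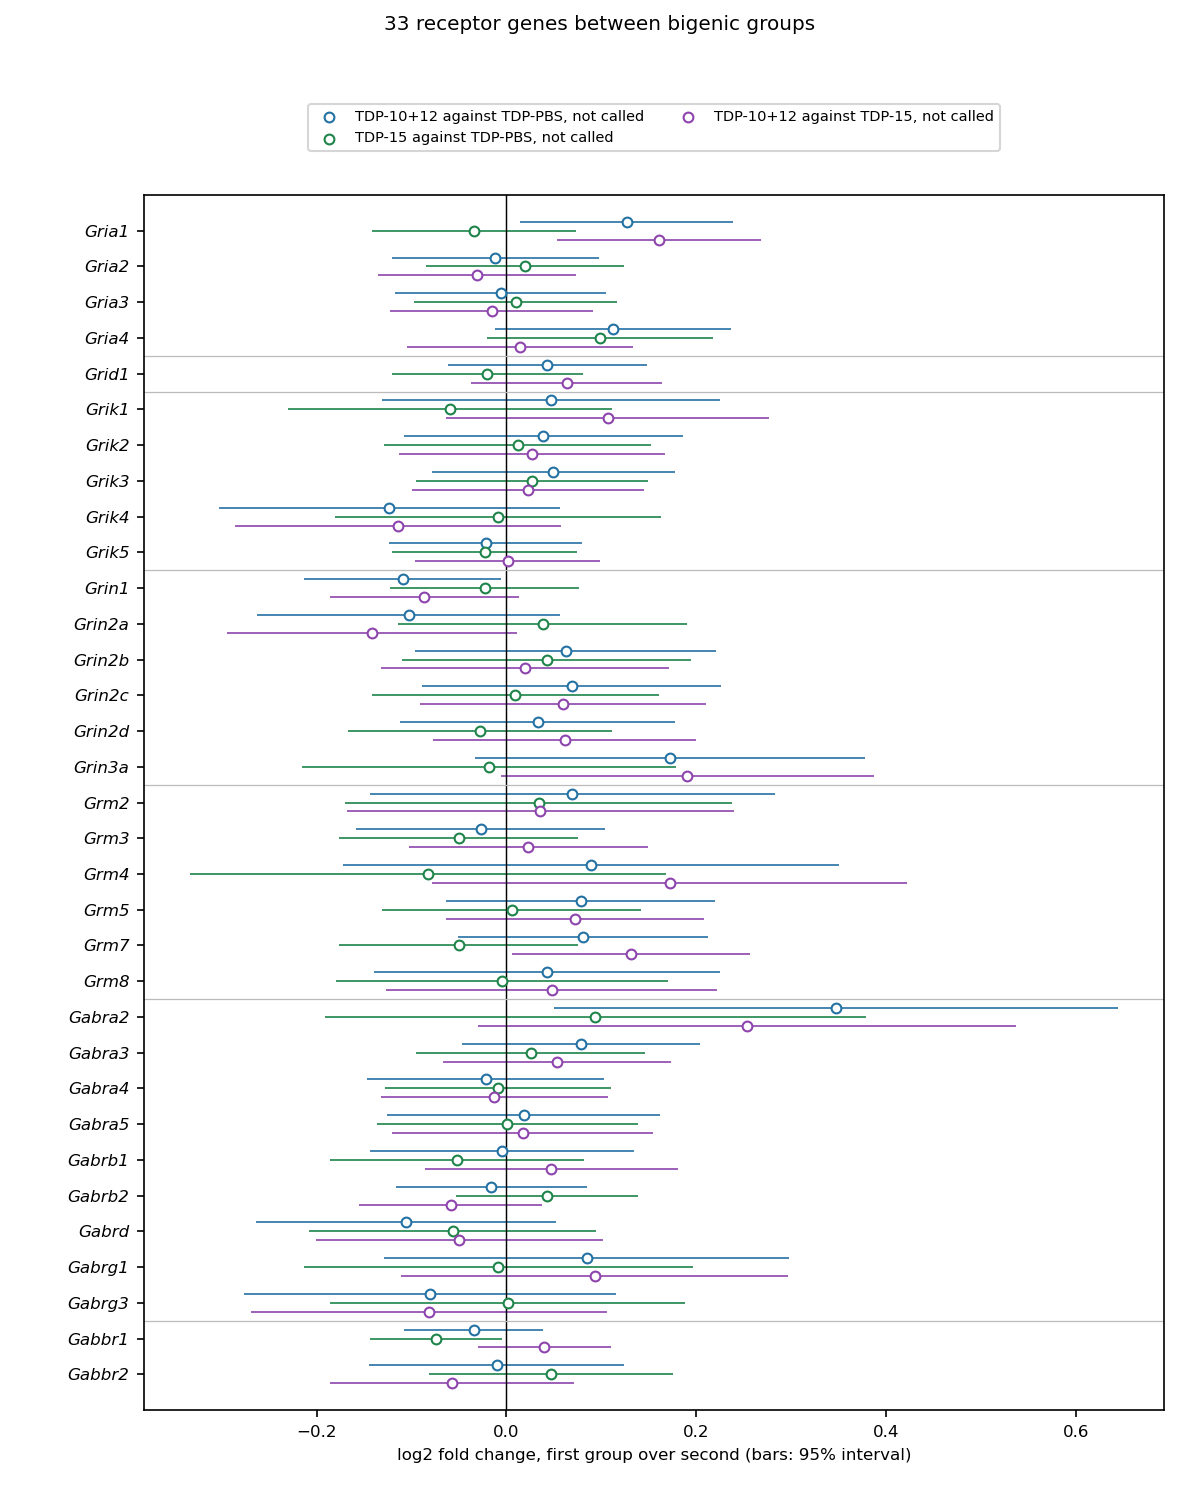
Log2 fold change of the 33 receptor genes in TDP-10+12 against TDP-PBS, TDP-15 against TDP-PBS and TDP-10+12 against TDP-15. Points are estimates and bars are 95% intervals. All points are open, since none passed an adjusted p of 0.05, and Gabra2 has the widest bars.

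Whether the difference between TDP-PBS and ctrl-PBS depended on sex was asked in the 27 mice given PBS. No member was called, and 0% of the 17363 genes tested in that fit were (edgeR's quasi-likelihood test). DESeq2 also called 0 members. Grin2a had the smallest p of the members (unadjusted p = 0.0176, adjusted p = 0.746). It was the only one of 33 under 0.05 unadjusted, where 1097 of the 17363 genes tested were.

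Other genes of the same pathways were read from the same fit. Of 17 auxiliary subunits of AMPA and kainate receptors, which control their surface delivery and gating, 10 were lower and 1 higher in TDP-PBS, 8 and 1 in TDP-10+12, and 12 and 1 in TDP-15, where 21.6%, 20% and 23.2% of all genes tested were lower. Olfm3, a secreted partner of AMPA receptor complexes, changed by −0.63, −0.60 and −0.60 and Gsg1l, a negative modulator of AMPA receptors, by −0.45, −0.40 and −0.50. Cacng7 (TARP gamma 7) was the gene that was higher in TDP-PBS (0.30, 0.14 and 0.23), and its value in TDP-10+12 did not pass (adjusted p = 0.0757). Of 12 auxiliary and clustering proteins of GABA receptors, 4 were lower and 3 higher in TDP-PBS. These counts lie near the shares of all genes tested, 21.6% lower and 21.9% higher. Kctd16 and Kctd8, which bind GABA-B receptors, changed by −0.40, −0.41 and −0.37 and −0.31, −0.34 and −0.45, and all of these passed. Lhfpl3 rose in each group (0.33, 0.42 and 0.36), and Nlgn2, the adhesion protein of inhibitory synapses, had 0.14, 0.08 and 0.12 and passed in TDP-PBS and TDP-15.

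Among 10 genes of glutamate transport and metabolism, 5 were lower and 0 higher in TDP-PBS, 5 and 0 in TDP-10+12, and 7 and 0 in TDP-15. Over all genes tested, 21.6%, 20% and 23.2% were lower in these groups and 21.9%, 20.8% and 23.6% higher. Slc17a6 (VGLUT2), the vesicular transporter typical of thalamic neurons, changed by −0.83, −0.70 and −0.69. Slc17a7 (VGLUT1), that of cortical neurons, was not called (−0.03, −0.06 and −0.07). Summed thalamic neuron markers had medians of 23.5 CPM in ctrl-PBS, 25.9 in TDP-PBS, 24.4 in TDP-10+12 and 28.0 in TDP-15. Which cells gave the Slc17a6 counts was not tested. Beside the same shares over all genes, 3 of 8 genes of GABA synthesis and transport were lower in TDP-PBS, 5 in TDP-10+12 and 6 in TDP-15. None was higher. Aldh5a1, which degrades GABA, changed by −0.45, −0.42 and −0.47 and Gad1, which makes it, by −0.41, −0.30 and −0.42. Adarb1, the enzyme that edits the Gria2 transcript at its calcium site, was lower in each group (−0.21, −0.16 and −0.20), as were 16.1% of all genes tested. It was the 1 of 3 editing enzyme genes that was called.

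Member genes are long. Their median span in RefSeq was 224 kb (11.6 to 922 kb), against 24.6 kb over the 14928 protein-coding genes tested. In TDP-PBS, 21.4% of genes under 10 kb were lower, 19.7% from 10 to 30 kb, 23.6% from 30 to 100 kb, 30.1% from 100 to 300 kb and 36.1% over 300 kb. Of the members, 2 of 5 from 10 to 30 kb, 2 of 5 from 30 to 100 kb, 6 of 9 from 100 to 300 kb and 6 of 14 over 300 kb were lower. Across the 33 members the log2 fold change in TDP-PBS and the log of the span had a Pearson's r of −0.31 and a Spearman's rho of −0.23, which describe these genes and are not tested, since genes of the same libraries are not independent. Over all protein-coding genes tested r was −0.10. Whether gene span had a part in the receptor values was not tested.

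**Figure D5:**
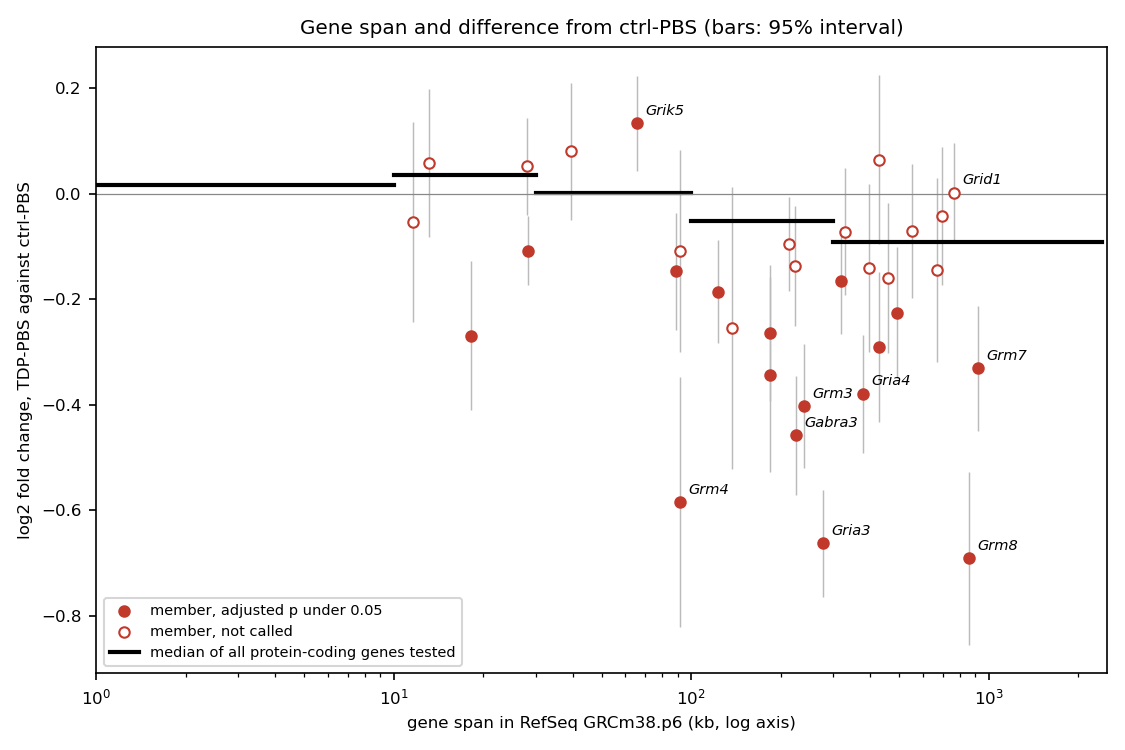
Log2 fold change in TDP-PBS against ctrl-PBS by gene span (kb, log axis). Points are the 33 receptor genes with 95% intervals, filled where the adjusted p was under 0.05, and black lines are medians of all protein-coding genes tested in 5 span classes, the outer classes being open-ended. The black lines go from 0.02 under 10 kb to −0.09 over 300 kb, and the most negative members, Grm8, Gria3 and Grm4, lie below them.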

How the data were processed

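RNA from about 30 mg of neocortex per mouse was sequenced by the authors in pairs of 100 bp reads, which were aligned to GRCm38.p6. The submitters' processing notes name HISAT, HISAT2, Bowtie, Bowtie2 and RSEM without a role. The counting tool, annotation and strand setting are not given in the sources used here. The authors deposited raw counts per gene and mouse, which were used as deposited, and 6073 of 45252 genes had no count in any mouse. Groups and sexes came from the labels, which name no batch. Replicates are separate animals, and no mouse's counts matched another's within sampling noise (chi-squared over degrees of freedom at least 7.24 within groups, for genes with at least 20 counts).

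Genes were filtered with filterByExpr by group (at least 10 counts, 15 in total), scaled by TMM (factors 0.929 to 1.06) and fitted over all 49 mice with glmQLFit and glmQLFTest in edgeR 4.0.16 (R 4.3.3), two-sided, with Benjamini-Hochberg adjustment over 18220 genes. Standard errors were derived from the F statistic, and 95% intervals are 1.96 standard errors on either side. The sex interaction was fitted in the 27 PBS-treated mice. Subunit ratios used permutation tests (scipy 1.17.1). Steps were tested on simulated counts. Gene spans come from RefSeq GRCm38.p6, and exonic lengths from GENCODE M21 as the union of all exons, so levels per kilobase depend on the annotated transcripts. Promoters come from RefSeq GRCm38.p6.

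All 33 members are named. Values by group are given for the 2 largest increases and 2 largest decreases per receptor class among genes called in TDP-PBS, and called genes at the extremes of each pathway list are named, except for some that are not reported here. The members, lists and tests were chosen with earlier results of these data known. Slc17a7 and others outside these rules were chosen after their values were seen. Alternatives were DESeq2 size factors, upper-quartile scaling, no filter, a minimum of 10 counts in each mouse, a sex term, only the 2 groups compared, DESeq2 1.42.0 and limma-voom with quality weights (limma 3.58.1). For ratios they were an offset of 0.5 CPM and medians. Leaving out the 10 mice with olfactory bulb markers and a striatal marker covariate were added after the data had been seen. Figures were drawn with matplotlib 3.10.9.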

Additional observations from a re-analysis of the deposited data

Results flagged for a closer look

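In 5 of 66 sets of mice examined (each member gene in TDP-PBS and in TDP-10+12, the groups of 10 mice), 1 mouse lay far from the other 9 by Dixon's criterion, and chance gives about 1 in 20. Grik4 had 36.8 CPM in 1 TDP-10+12 mouse, with the others at 23.6 to 28.8 CPM. Grin2d had 51.8 CPM in another TDP-10+12 mouse (others 37.2 to 44.3 CPM), and Grm8 had 11.6 CPM in a different one (others 7.62 to 9.38 CPM). In TDP-PBS, Grin3a had 43.5 CPM in 1 mouse (others 26.8 to 34.7 CPM) and Grm4 had 113 CPM in another (others 46.6 to 75.7 CPM). Each of the 5 was the highest value of its group, and they came from 5 different animals.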

How the results depend on the processing

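Over 10 alternatives, 27 of 990 single-gene values (33 members, 3 comparisons with ctrl-PBS) moved across the threshold and 0 changed direction past it. The number of members called lay between 15 and 18 in TDP-PBS, 13 and 17 in TDP-10+12 and 16 and 19 in TDP-15, where 19.8% to 49.6%, 18.5% to 46.6% and 22% to 52.8% of all genes tested were called, the lowest shares being those without a filter. It was 0 between bigenic groups and for the sex interaction under every alternative run. The Gria2 ratio in TDP-10+12 against TDP-15 was −0.082 with medians (adjusted p = 0.129). Without the mice with olfactory bulb markers, differences that no longer passed were −0.15 for Grin2a to Grin2b in TDP-10+12 against TDP-PBS, 0.13 for the Gria2 ratio in TDP-PBS, and 0.27 and 0.34 for Grm2 to Grm3 in TDP-PBS and TDP-10+12. Fewer mice were in these tests. No paired analysis was possible because every mouse is a separate animal with its own number. Depth did not limit members, whose lowest count in any mouse was 121.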
